A study of Bos taurus with 16 samples.

Results

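Gene expression in the endometrium, the inner lining of the uterus, was compared between day 50 and day 10 after parturition in the same 4 cows. The arrays were chosen by the day in their labels, 4 labelled day 10 and 4 labelled day 50, which makes 8 of the 16 arrays of the study. The cows are described as fertile, and their breed, age and number of calvings are not given in the sources used here. Day 10 biopsies were taken on days 9, 9, 9 and 10 in cows 1 to 4, and day 50 biopsies on days 51, 49, 51 and 51. Each biopsy consisted of several pieces taken with forceps from the uterine horns, with no treatment named, and the stage of the oestrous cycle was not given. The other 8 arrays, of days 30 and 100 in the same cows, entered the fit to share its estimate of the spread and are given side by side where they help.

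After calving the bovine uterus sheds tissue, clears bacteria and rebuilds its lining, a process called involution. Matrix metalloproteinases cut collagen and other matrix proteins, neutrophils and macrophages take up bacteria and debris, and antimicrobial peptides are secreted by epithelium and white blood cells. Later the luminal and glandular epithelium regrows, ovarian cycles return and the tissue produces the secretions and signals on which a next pregnancy depends. Day 10 falls in the early stage of this process and day 50 in the stage when cows are usually bred again.

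A level below is the log2 processed signal of a probe minus the percentile 75 of its array, so 0 is the brightness that 75% of spots do not exceed. Levels are listed for cows 1 to 4 in that order, and a difference is day 50 minus day 10 on the log2 scale with its standard error (SE). Levels of different probes are not comparable with each other. A gene is represented by its brightest tested probe, and "called" means a Benjamini-Hochberg adjusted p under 0.05 in limma over 33182 tested probes, with cow as a block.

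On the 8 arrays the median processed signal ran from 98.4 to 154 and the share of spots well above background from 61.2% to 77.0%, lowest in cow 1 at day 10, and no spot was saturated. Between cows the day 10 arrays had a Pearson r over all probes of 0.90 to 0.98, and the day 50 arrays one of 0.94 to 0.98, where probes do not count as independent. Every cow had a slide of its own and each day the same position on every slide, so day and slide position cannot be told apart, nor can cow and slide. The defining epithelial and stromal markers of endometrium were present: all 15 stromal fibroblast markers and 19 of 21 epithelial markers were well above background on all 8 arrays. The biopsies differed in make-up at day 10. Given as the mean log2 level of its markers after centring each marker over the 16 arrays, the epithelial list stood at 1.01, -2.56, -0.93 and 0.98. The same measure was -1.50, 1.60, 1.35 and -1.69 for smooth muscle, and 3.36, 0.54, 0.53 and 3.38 for neutrophils. Cows 1 and 4 were therefore high in epithelial and neutrophil markers at day 10, and cows 2 and 3 in smooth muscle markers.

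The largest falls included those of the collagenase and stromelysin genes that lie side by side on chromosome 15. The brightest tested probes of MMP3, MMP1, MMP13 and MMP12, whose values are given further on, are shown because these genes fell in every cow and kept their call under every alternative in which they were tested. Only the first 30 bases of each 60-base probe are printed, with the span of the whole probe on bovine build Btau_3.1, plus strand. A span longer than the probe is the one given in the deposited files.
MMP3 at chr15:4733287-4734269: gtggaagattttccaggggttgaatcagag
MMP1 at chr15:4792583-4792641: acaacttcaggaatgtatgagcaaccacca
MMP13 at chr15:4627334-4627393: tggaaagcatttgagataacacttccagac
MMP12 at chr15:4717048-4717107: tataatgtcctagcccaacgtgtcgttgaa
The gene with the largest rise, CRIPTO, was measured by 1 probe on the minus strand, which is shown for that reason.
CRIPTO at chr22:54214193-54214252: tgccttgaaatagtgaatagatttccctgt

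Of 13136 genes tested, 263 (2.00%) were called, 98 higher at day 50 (0.746%) and 165 lower (1.26%). Counted as probes, 547 (1.65%) were called, 197 higher (0.594%) and 350 lower (1.05%), and 6159 had an unadjusted p under 0.05. Among called genes rises were larger than falls, with a median size of 3.10 against 1.95, and 32 rises and 26 falls exceeded 16-fold. On at least 1 day 10 array 34 of the 98 rises were not well above background. The same held on at least 1 day 50 array for 38 of the 165 falls. Sizes that start or end at such dim signals depend on the background correction. The median difference of all tested genes was -0.03, with quartiles of -0.39 and 0.36. The same direction was seen in all 4 cows for 97 of the 98 rises and 164 of the 165 falls; the exceptions, OSR1 and RAD18, each had a spot left out on an array. Levels at the 2 days did not overlap for 93 of the rises and 147 of the falls, against 9.19% of all tested genes that were higher and 8.34% that were lower without overlap, 17.5% in all.

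The number of calls depended on single cows and arrays. Without cow 1, 2, 3 or 4 it was 23, 132, 21 or 149 probes. It lay between 48 and 376 when 1 array of day 10 or day 50 was left out. The share of calls that were higher at day 50, 36.0% here, also moved with the setting. It was 31.1% over probes above background on all 8 arrays and 31.2% with no filter on dim probes. It was 49.1% with normexp background correction (302 higher and 313 lower). In a paired fit of the 8 arrays alone it was 53.2%, and more calls were higher than lower (472 and 416).

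**Figure D1:**
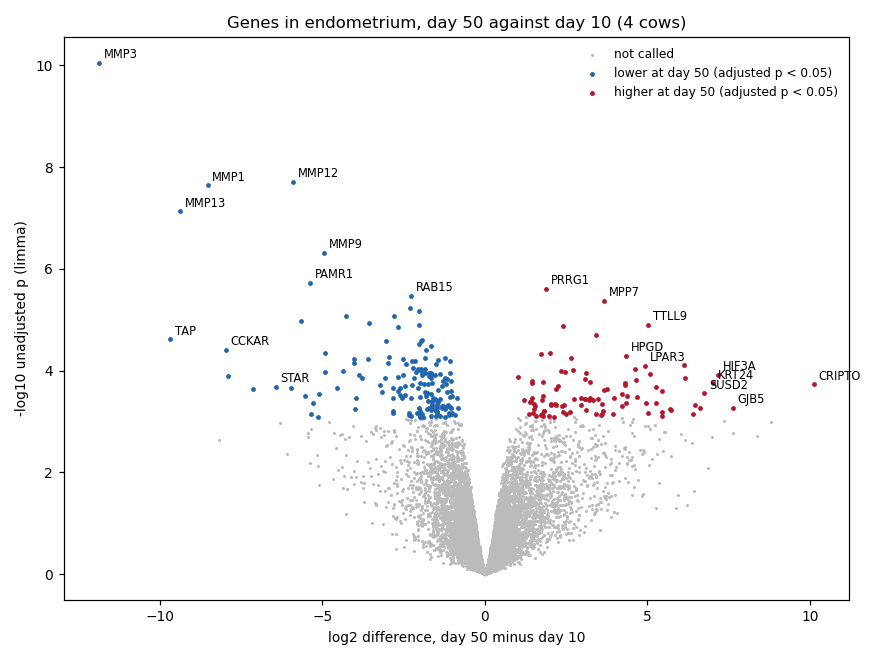
Each point is 1 of 13136 genes, with the log2 difference, day 50 minus day 10, on the x axis and -log10 of the unadjusted limma p on the y axis. Blue points are the 165 genes called lower and red points the 98 called higher; MMP3 lies at the far upper left with a difference of -11.87 and CRIPTO at the far right with 10.12.

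Of 15 tested matrix metalloproteinases all had a negative difference, 6 were called lower and none higher, and the median was -1.23 against -0.03 for all genes. For this list and those below, the shares over all tested genes were 1.26% called lower and 0.746% called higher. MMP3 encodes stromelysin, which cuts many matrix proteins and activates other metalloproteinases. Its level was 3.32, 3.08, 4.19 and 4.17 at day 10 and -8.68, -8.59, -9.25 and -6.20 at day 50, where only 1 of 4 arrays was well above background. It fell by 11.87 ± 0.53 (SE, 4 cows, limma adjusted p = 9.84e-07), and its 4 probes had differences from -11.87 to -9.57.

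MMP1, the collagenase that opens fibrillar collagen, stood at 1.61, 3.02, 4.18 and 4.24 at day 10. At day 50 it stood at -5.50, -4.88, -5.41 and -5.30, still above background in every cow. It fell by 8.54 ± 0.63 (SE, 4 cows, limma adjusted p = 0.000126). Cow 1 had the lowest day 10 level and the 4 day 50 levels lay close together.

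MMP13, another collagenase, went from 1.31, -1.65, 0.17 and 1.31 to levels that were not well above background in any cow at day 50. It was at least 142-fold lower (limma adjusted p = 0.000244), a bound that sets the day 50 arrays at the lowest signal among their detected probes. MMP12, the macrophage elastase, was likewise not detected at day 50 and at least 15.3-fold lower (limma adjusted p = 0.000126), from -3.85, -2.88, -2.83 and -2.16. Levels of the 2 days did not overlap for either gene. With normexp background correction, which pulls dim signals up, MMP3, MMP13 and MMP12 fell by 7.70, 4.77 and 1.75 and stayed called (limma adjusted p of at most 0.0287).

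MMP9, a gelatinase stored in neutrophil granules and also made by macrophages, fell by 4.96 ± 0.49 (SE, 4 cows, limma adjusted p = 0.00099). Cow 1 stood above the others at day 10, with 2.54 against 0.33, 0.37 and 0.06, whereas all day 50 levels lay between -4.31 and -3.95. MMP14, a collagenase anchored in the cell membrane, fell by 2.66 ± 0.51 (SE, limma adjusted p = 0.0323). MMP1, MMP3, MMP9, MMP12 and MMP13 were the 5 of 92 named called genes that kept their call when any 1 cow or array was left out and under every other alternative in which they were tested.

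Among protease inhibitors and plasminogen activators 2 of 26 tested members were called, both lower, and the list's median was -0.16. PLAU, the urokinase that turns plasminogen into plasmin, had day 10 levels of 3.78, 3.05, 3.77 and 4.24 and day 50 levels of 0.66, 0.54, 0.96 and 1.37. SERPINB2, which inhibits urokinase, was not well above background at day 50 and was at least 4.81-fold lower, with 3 of 4 arrays detected at day 10. With normexp background correction SERPINB2 was not called, and its smallest difference among the alternatives was -0.94. PAMR1, a secreted protein with a protease-like domain, had close levels in the 4 cows: 4.74, 5.02, 4.97 and 4.33 went to -0.74, -0.30, -1.39 and -0.01, so that it fell by 5.37 ± 0.60 (SE, 4 cows, limma adjusted p = 0.00369). None of 32 tested collagens and matrix proteins was called by limma, and 8 had an unadjusted p under 0.05; 23 of the 32 were lower and the median was -0.36. The largest differences in that list were TNC at -3.30 (adjusted p = 0.138), SPP1 at -3.03 (0.0816) and THBS2 at -2.09 (0.113). TNC and THBS2 were lower at day 50 in all 4 cows, and SPP1 in 3. Collagen genes outside the list, named after their values were seen, were called higher, among them COL2A1 and COL9A3, which are given at the end. COL5A3 rose by 2.40 ± 0.52 (SE, limma adjusted p = 0.0461) at its brightest probe, and its other probes were not called. TGFBI, a matrix protein also outside the list and given at the end, was called lower.

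**Figure D2:**
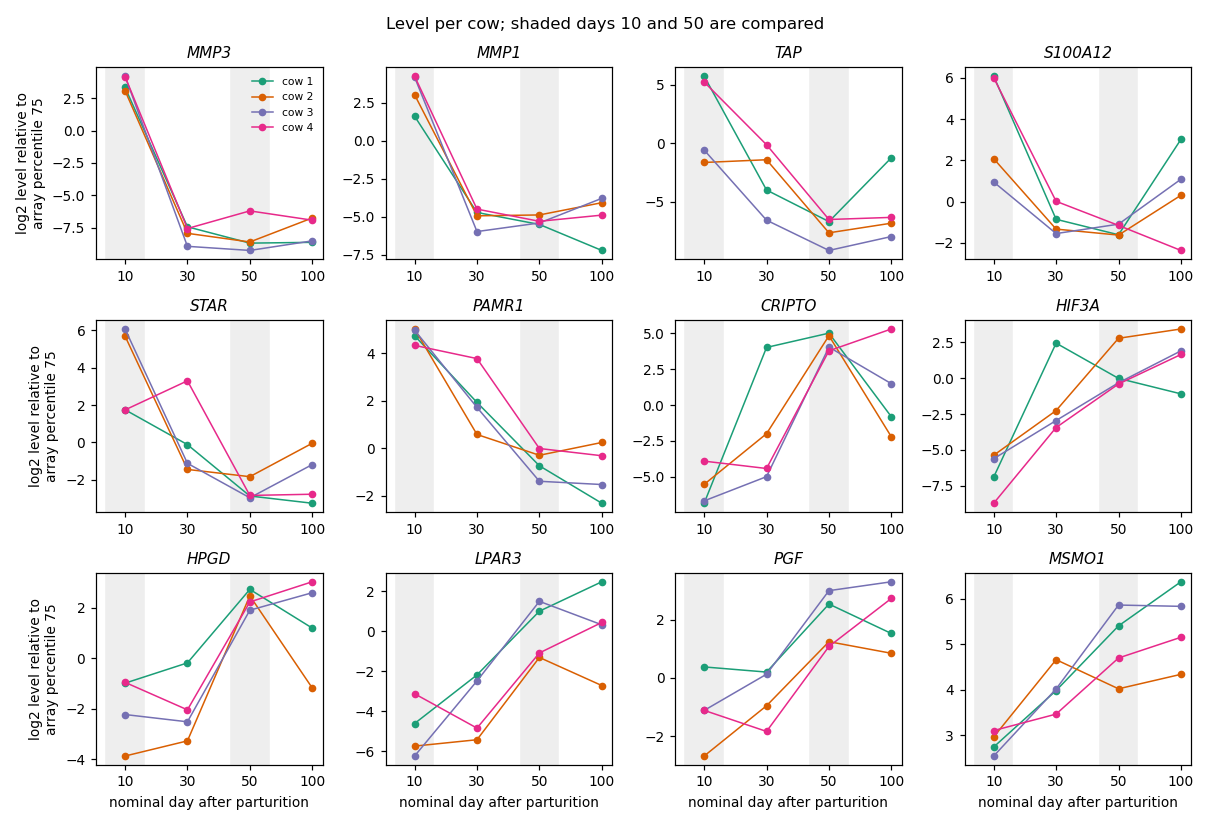
Log2 level relative to the array's percentile 75 (y axis) for 12 named genes at nominal days 10, 30, 50 and 100 (x axis), 1 line per cow, with the compared days shaded. MMP3 and MMP1 drop in all 4 cows, TAP and S100A12 start high in cows 1 and 4, STAR starts high in cows 2 and 3, and CRIPTO, HIF3A, HPGD, LPAR3, PGF and MSMO1 are higher at day 50 in every cow.

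Antimicrobial peptides and acute phase proteins were lower at day 50 in 24 of 29 tested members, of which 4 were called, and the median was -1.84. TAP, the tracheal antimicrobial peptide, a beta-defensin of cattle epithelium, stood at 5.74, -1.63, -0.57 and 5.24 at day 10 and at -6.68, -7.64, -9.14 and -6.50 at day 50. It fell by 9.68 ± 1.42 (SE, 4 cows, limma adjusted p = 0.0144), with 1 of 4 arrays above background at day 50. DEFB7, a related defensin, fell by 5.97 ± 1.12 (SE, limma adjusted p = 0.0303), and S100A12, a calcium-binding protein of neutrophils, by 5.14 ± 1.14 (SE, limma adjusted p = 0.0497). For all 3 genes the day 10 levels of cows 1 and 4 exceeded those of cows 2 and 3, the same cows in which the neutrophil and epithelial lists were high, while the day 50 levels of S100A12 lay between -1.62 and -1.09. The part of cell make-up in these differences was not tested.

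TCN1, a vitamin B12 binding protein of neutrophil granules and mucosal glands, followed the same cows, with 6.05, -0.86, -0.42 and 5.39 at day 10 against -4.61, -5.34, -4.73 and -6.82 at day 50. It fell by 7.91 ± 1.39 (SE, 4 cows, limma adjusted p = 0.0248). PLET1, an epithelial surface protein, went from 2.15, -4.66, -1.64 and 1.87 to between -8.48 and -6.07 and was detected on 1 of 4 day 50 arrays. SLC13A2, a carrier of citrate and related acids, was high in cows 1 and 4 as well (1.24 and 0.12 against -5.65 and -4.43) and at least 25.7-fold lower at day 50. SLC13A2 was not called with normexp background correction, and its smallest difference among the alternatives was -2.59.

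Of 29 tested chemokines, the signals that call in and direct white blood cells, 3 were called, all lower. In all 25 had a negative difference, and the median was -1.28. No chemokine was called without cow 1, 2 or 3, and 1 was called without cow 4. CXCL8, the main attractant of neutrophils, was 2.49, -2.77, -1.89 and 2.35 at day 10 and between -6.09 and -5.11 at day 50, and fell by 5.54 ± 1.09 (SE, 4 cows, limma adjusted p = 0.0355). CCL3 and CCL4, neighbouring genes whose products attract monocytes, fell by 2.69 ± 0.37 and 2.04 ± 0.43 (SE, limma adjusted p = 0.00998 and 0.0431). Their receptor CCR1 was the 1 called gene among 12 tested chemokine receptors and fell by 2.00 ± 0.40 (SE, limma adjusted p = 0.0361).

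In the interleukin-1 family 10 of 12 tested members were lower, and 1 was called. IL1RN, the natural antagonist of the interleukin-1 receptor, went from 2.91, 0.46, 2.05 and 3.12 to -2.25, -3.02, -1.18 and -0.20, and fell by 3.80 ± 0.68 (SE, limma adjusted p = 0.0258). Among other cytokines and receptors 18 of 26 were lower, and CSF2 and CSF1R were called. CSF2, the granulocyte-macrophage growth factor, was not well above background at day 50 and at least 12.1-fold lower. CSF2 was not called with normexp background correction, and its smallest difference among the alternatives was -1.45. CSF1R, the growth factor receptor on which macrophages depend, fell by 2.02 ± 0.28 (SE, limma adjusted p = 0.00979), from 2.67, 2.47, 2.75 and 3.60 to 0.55, -0.16, 1.21 and 1.82.

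Macrophage markers were lower without exception. All 19 tested members had a negative difference, 9 were called lower, the levels of 10 did not overlap between the days and the median was -1.81. Over all tested genes 1.26% were called lower and 8.34% were lower without overlap. The level of the whole list at day 50 was -1.49 to 0.85, and 17 of 20 markers on the array were above background on all 8 arrays. In tissue pieces fewer cells of a type and less RNA per cell cannot be told apart. Its day 10 level was 1.79, 0.86, 1.54 and 2.42, so cows 1 and 4 were the highest, as for neutrophils. The median difference of its members was -2.14, -2.27, -1.17 and -1.77 in cows 1 to 4. The 9 calls did not last without a cow, with 0, 0, 0 and 1 left without cows 1, 2, 3 and 4.

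CD14, which binds bacterial lipopolysaccharide for recognition by toll-like receptors, had the largest fall among the macrophage markers. Its levels of 3.83, 1.82, 2.76 and 4.02 went to -0.13, -0.97, 0.38 and 0.90, and thus fell by 3.06 ± 0.45 (SE, 4 cows, limma adjusted p = 0.0145). The Fc receptor FCGR1A fell by 2.27, the lysosomal protein CD68 by 2.01 and the integrin ITGAM by 2.00. ITGAM was dim, above background on 2 of 4 day 10 arrays and 1 of 4 day 50 arrays. SPI1, the transcription factor PU.1 of myeloid cells, fell by 1.89, the signalling adaptor TYROBP by 1.81 and the scavenger receptor MSR1 by 1.66.

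Genes chosen after their values were seen, because they are further textbook genes of phagocytes, included TREM2, a receptor that signals through TYROBP, which fell by 2.08 ± 0.45 (SE, limma adjusted p = 0.0461). ITGB2, the partner chain of ITGAM, fell by 1.52 ± 0.34 (SE, adjusted p = 0.0485) and IRF8, a transcription factor of monocytes, by 1.66 ± 0.37 (SE, adjusted p = 0.0485). CYBB, the catalytic subunit of the oxidase that makes microbicidal oxygen radicals, fell by 1.19 ± 0.25 (SE, adjusted p = 0.0425). CD44, a hyaluronan receptor whose gene is next to PAMR1 among the tested genes, fell by 2.95 ± 0.47 (SE, adjusted p = 0.0195).

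Neutrophil markers were lower in 10 of 10 tested members, with a median of -1.96, and MMP9 and S100A12 were called. The list's level went from between 0.53 and 3.38 at day 10 to between -1.09 and -0.72 at day 50, and its spread between cows from an SD of 1.64 to 0.16 (n = 4). The median difference of its members was -3.77 in cow 1 and -3.52 in cow 4, against -0.70 in cow 2 and -1.43 in cow 3. No defining neutrophil marker on the array was below background on all 8 arrays.

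Of 27 genes for bacterial sensing 22 were lower and 4 were called lower, with a median of -0.41. Besides CD14 and TYROBP these were TLR7, a receptor for single-stranded RNA, which fell by 2.02 ± 0.26 (SE, limma adjusted p = 0.00756), and CLEC7A, a receptor for fungal glucans, which fell by 1.84 ± 0.35 (SE, limma adjusted p = 0.033). Among 26 complement genes C3AR1, the receptor for the C3a fragment, and ITGAM were called lower, and the median was -0.97. Of 34 lysosomal genes 31 were lower and 5 were called lower, and the levels of 22 did not overlap, with a median of -0.93. Over all tested genes 1.26% were called lower and 17.5% did not overlap, in either direction. CTSB, a cathepsin protease, fell by 1.28 ± 0.26 (SE, limma adjusted p = 0.0407), from 4.95, 5.22, 5.22 and 4.87 to 3.64, 3.73, 3.75 and 4.04. CTSC, which activates granule proteases, fell by 1.97, LAPTM5, a lysosomal membrane protein of blood cells, by 1.65, and ATP6V0D2, a proton pump subunit of macrophages and osteoclasts, by 2.66. The median difference of the lysosomal list in cows 1 to 4 was -1.14, -0.83, -0.75 and -0.95, and without any 1 cow none of its members was called.

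**Figure D3:**
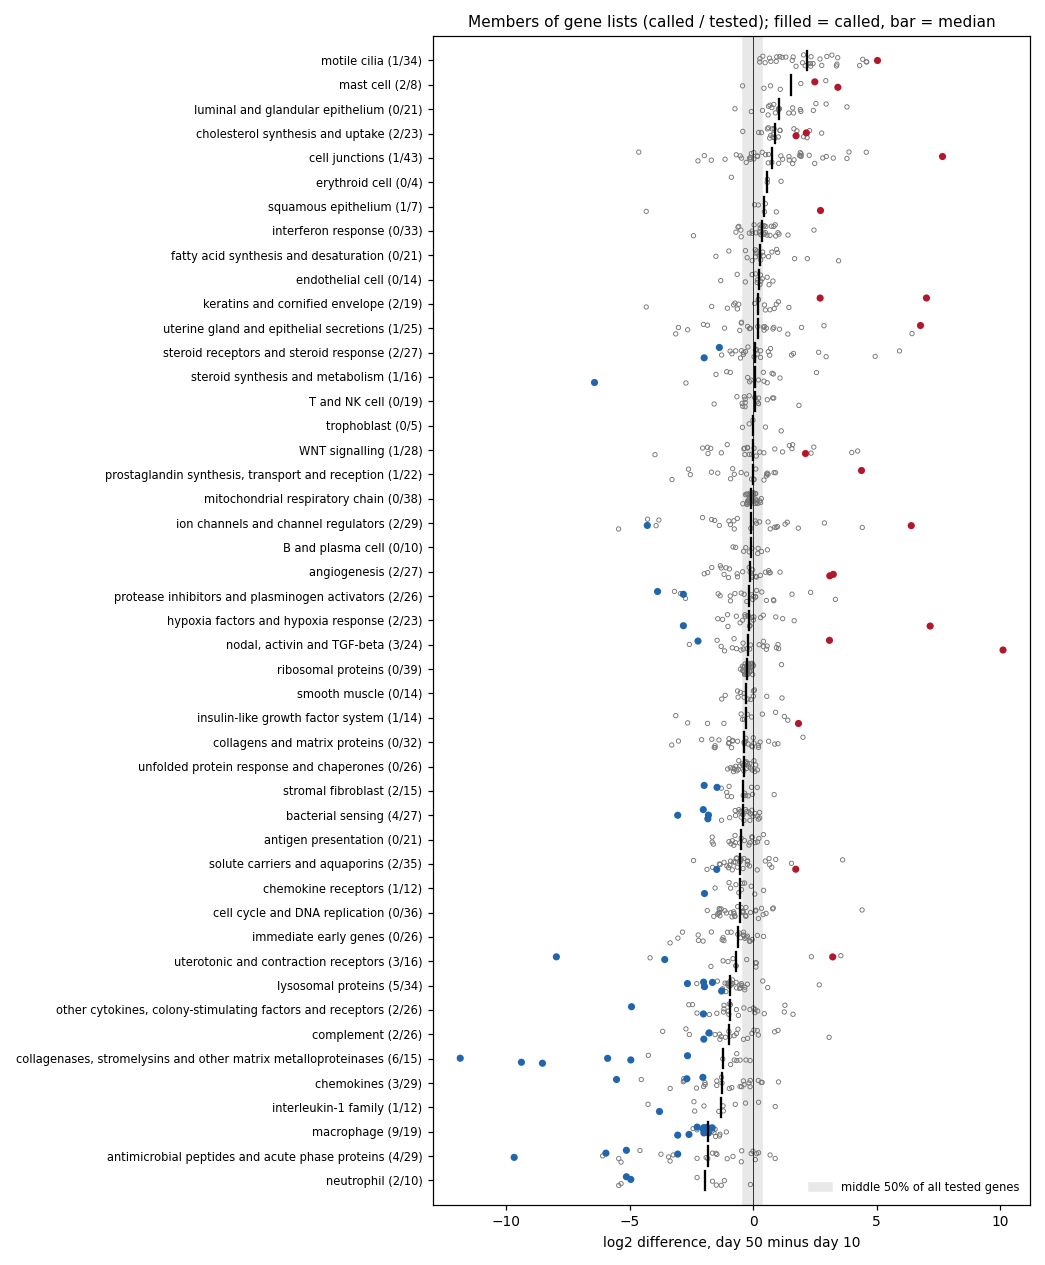
Log2 differences, day 50 minus day 10 (x axis), of the tested members of 47 gene lists, ordered by median from the motile cilia list at 2.17 to the neutrophil list at -1.96. Filled points are called members, open points are not called, black bars are medians, numbers in brackets are called and tested members, and the grey band is the middle 50% of all tested genes, from -0.39 to 0.36.

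A different set of falls came from genes that were high at day 10 in cows 2 and 3, the cows with high smooth muscle and low epithelial markers at that day. STAR, which carries cholesterol into mitochondria for steroid synthesis, stood at 1.75, 5.69, 6.07 and 1.74 at day 10 and at -2.87, -1.83, -2.96 and -2.84 at day 50. It fell by 6.44 ± 1.20 (SE, 4 cows, limma adjusted p = 0.0295). Its 4 probes had differences from -7.09 to -6.44, and it was the 1 called gene of 16 tested for steroid synthesis. PMEL, known for the fibrils of pigment granules, went from 1.72, 4.30, 4.51 and 1.79 to between -3.09 and -1.92, and fell by 5.67 ± 0.76 (SE, limma adjusted p = 0.00934). Levels of the 2 days did not overlap for either gene, and the part of cell make-up was not tested.

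CCKAR, a receptor for the hormone cholecystokinin that contracts smooth muscle, fell by 7.97 ± 1.23 (SE, 4 cows, limma adjusted p = 0.0176). It stood at -0.44, 2.53, 2.65 and 0.77 at day 10 and between -9.02 and -4.78 at day 50, with 2 of 4 arrays above background. Its ligand CCK, named after its values were seen, fell by 4.02 ± 0.65 (SE, limma adjusted p = 0.0196), from between -3.41 and -1.14 to between -7.17 and -5.59. Of the 16 tested uterotonic and contraction receptors and ligands, EDNRB, an endothelin receptor, was at least 4.26-fold lower and not detected at day 50. EDNRB lost its call with normexp background correction, and its smallest difference among the alternatives was -0.70. EDN3, an endothelin ligand, rose by 3.22 ± 0.59 (SE, limma adjusted p = 0.0277), from -4.51, -3.14, -0.32 and -3.82 to 0.32, -0.20, 0.82 and 0.17. EDN3 and EDNRB therefore moved in opposite directions.

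SLC6A15, an amino acid transporter, fell by 5.36 ± 1.17 (SE, limma adjusted p = 0.047) and was detected on 1 of 4 day 50 arrays. CYGB, an oxygen-binding globin of fibroblasts, fell by 4.00, and the transcript MGC157368, whose role is not described here, by 5.10. TRPA1, a channel that senses irritants, fell by 4.29 ± 0.56 (SE, limma adjusted p = 0.00839). HAND2, a transcription factor of endometrial stroma that acts downstream of progesterone, fell by 1.99, and NCOA3, a coactivator of steroid receptors, by 1.37 (limma adjusted p = 0.0461 and 0.0485); these were the 2 called genes of 27 for steroid receptors and response. PDPN, a surface glycoprotein of stroma and lymphatic vessels, fell by 1.47, TGFB2, a growth factor of the TGF-beta family, by 2.24, and SLC40A1, the iron exporter ferroportin, by 1.48. ENC1 and RAB15, among the 8 falls with the smallest p, fell by 2.31 and 2.28. CA12, a carbonic anhydrase, was at least 2.03-fold lower and not detected at day 50. CA12 was not called with normexp background correction, and its smallest difference among the alternatives was -0.45.

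The largest rise was that of CRIPTO, a co-receptor for nodal. Its level was -6.82, -5.52, -6.66 and -3.90 at day 10, where 3 of 4 arrays were above background, and 4.99, 4.81, 4.02 and 3.77 at day 50. The rise was 10.12 ± 1.86 (SE, 4 cows, limma adjusted p = 0.0282). FST, follistatin, which binds and blocks activin, rose by 3.09 ± 0.62 (SE, limma adjusted p = 0.0361), from 0.01, -0.85, -0.65 and 0.83 to 3.23, 0.84, 4.15 and 3.49. With TGFB2 these were the 3 called genes of 24 in the nodal, activin and TGF-beta list, whose median was -0.19. WNT16, a secreted WNT ligand, was the 1 called gene of 28 in WNT signalling and rose by 2.11 (limma adjusted p = 0.0498).

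Growth factors for vessels and for the conceptus rose individually rather than as lists. PGF, placental growth factor, went from 0.38, -2.69, -1.12 and -1.11 to 2.54, 1.25, 3.00 and 1.08, a rise of 3.10 ± 0.54 (SE, limma adjusted p = 0.0248). VEGFD, a growth factor for lymphatic vessels, rose by 3.25 ± 0.65 (SE, limma adjusted p = 0.0361). The other 25 of 27 angiogenesis genes were not called and the list's median was -0.13. IGF2, a fetal growth factor, rose by 1.80 ± 0.40 (SE, limma adjusted p = 0.0485), to 5.62, 5.52, 5.59 and 5.39 from 3.43, 3.13, 4.65 and 3.71. Its 11 tested probes had differences of 0.62 to 2.46, and only the brightest was called. H19, the neighbouring gene for a non-coding RNA, named after its values were seen, rose by 3.63 ± 0.78 (SE, limma adjusted p = 0.0454), from -3.50, -2.69, -0.87 and -2.38 to 1.51, 1.12, 1.28 and 1.14. The day 50 levels of IGF2 and of H19 each lay within a narrow range over the 4 cows.

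HIF3A, a member of the hypoxia-inducible factor family, rose by 7.17 ± 1.25 (SE, 4 cows, limma adjusted p = 0.0248) at its brightest probe, from -6.90, -5.38, -5.62 and -8.73 to -0.01, 2.79, -0.32 and -0.40. Its 3 tested probes disagreed in size: the other 2 had differences of 1.97 and 1.24 (limma adjusted p = 0.226 and 0.576) and were not detected on any day 10 array. The probes lie at different places in the gene, which is why they are shown (build Btau_3.1, plus strand, first 30 bases).
HIF3A, difference of 1.97, chr18:53362145-53362204: tcaccgccgagggagacatggcttacctgt
HIF3A, difference of 1.24, chr18:53364827-53365382: tctcaaggcggccacctggaaggtactaca
HIF3A, rise of 7.17, chr18:53385728-53385787: tgctggctctgaaacccattaatctctaaa
SUSD2, a membrane protein used as a marker of endometrial mesenchymal cells, showed the same kind of disagreement, with differences of 6.75, 6.70 and 0.69 at its 3 probes, the last not called (limma adjusted p = 0.283). The probes that rose by 6.75 and 6.70 overlap, while the other lies at a lower coordinate of the plus strand.
SUSD2, rise of 6.75, chr17:74662819-74662878: tgtaactccaagtcttacggaacgtctcct
SUSD2, difference of 0.69, chr17:74661294-74661353: ttcctggtggaaaacttcaaggaacggcct
By the brightest probe SUSD2 went from -3.92, -4.96, -2.33 and -3.63 to 3.53, 3.07, 2.60 and 2.96 (SE of the rise 1.31, limma adjusted p = 0.0342).

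Single genes that handle prostaglandins and lipid signals were among the rises. HPGD, which inactivates prostaglandins, went from -0.98, -3.88, -2.23 and -0.95 to 2.74, 2.48, 1.91 and 2.24, a rise of 4.35 ± 0.69 (SE, 4 cows, limma adjusted p = 0.0192). It was the 1 called gene of 22 for prostaglandin synthesis, transport and reception, of which 11 were higher and 11 lower. That list's median was -0.02, with -0.55, 0.09, 0.43 and -0.72 in cows 1 to 4, and its sign changed under another scaling. LPAR3, a receptor for lysophosphatidic acid known for its part in embryo spacing and implantation, went from -4.61, -5.73, -6.23 and -3.12 to 0.99, -1.31, 1.49 and -1.09, a rise of 4.94 ± 0.83 (SE, limma adjusted p = 0.0225). Other probes of LPAR3 had differences of 4.75, called, and 1.94, not called (limma adjusted p = 0.226). DGKI, a kinase of the lipid diacylglycerol, rose by 5.45, with cow 2 at -2.56 at day 50 against 1.74 to 2.54 in the other cows.

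LRAT, which stores vitamin A as retinyl esters, rose by 5.01 ± 1.08 (SE, limma adjusted p = 0.0465), from between -5.00 and -4.35 to between -0.16 and 1.15. SDR16C5, a retinol dehydrogenase, rose by 5.70 ± 1.21 (SE, limma adjusted p = 0.0433). GC, the vitamin D binding protein of plasma, was not well above background at day 10 in any cow. By its brightest probe it was at least 26.6-fold higher at day 50. Other probes of GC had differences of 2.29 and 1.80, neither called (limma adjusted p = 0.284 and 0.263). F10, clotting factor X, rose by 5.73 ± 1.22 (SE, limma adjusted p = 0.0437). GC and F10 are best known as liver products.

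Sterol genes were higher by small amounts, with medians of 1.28, 0.59, 1.52 and 0.89 in cows 1 to 4. Of 23 tested genes for cholesterol synthesis and uptake 22 were higher at day 50, the levels of 13 did not overlap, 2 were called and the median was 0.88. Over all tested genes 0.746% were called higher and 17.5% did not overlap, in either direction. MSMO1, a sterol oxidase, went from 2.74, 2.97, 2.55 and 3.11 to 5.40, 4.02, 5.86 and 4.70, a rise of 2.15 ± 0.44 (SE, limma adjusted p = 0.0391). FDFT1, squalene synthase, rose by 1.74 ± 0.38 (SE, limma adjusted p = 0.0481), from 0.83, 1.56, 1.42 and 0.75 to 3.11, 2.28, 3.23 and 2.89. CYP39A1, which hydroxylates oxysterols on the way to bile acids, rose by 4.23 ± 0.82 (SE, limma adjusted p = 0.0349), and cows 1 and 3 were highest with 5.39 and 5.73 against 1.94 and 1.88. PHGDH, the entry enzyme of serine synthesis, rose by 4.66 ± 0.84 (SE, limma adjusted p = 0.0265). SLC1A4, a carrier of serine and alanine, rose by 1.72 ± 0.27 (SE, limma adjusted p = 0.0185).

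Epithelial structural genes included several of the largest rises. GJB5, a connexin of gap junctions, was not well above background at day 10 and at least 137-fold higher at day 50, at 0.90, 0.29, -0.74 and 0.02 (limma adjusted p = 0.0426). KRT24, a keratin, had day 10 levels of -7.08, -8.54, -6.43 and -9.27, with 1 of 4 arrays above background, and day 50 levels of 0.02, 0.98, -1.59 and -2.65. The difference of 7.02 ± 1.29 (SE, limma adjusted p = 0.028) therefore rests on dim signals at day 10, and with normexp background correction it was 3.66 (adjusted p = 0.033). KRT10, the next tested gene on the chromosome, was at least 3.56-fold higher and not detected at day 10. KRT10 was not called with normexp background correction, and its smallest difference among the alternatives was 0.64. MPP7, a scaffold of epithelial polarity, rose by 3.67 ± 0.45 (SE, limma adjusted p = 0.00588) at its brightest probe. Other probes of MPP7 had differences of 3.54, called, and 0.92, not called (limma adjusted p = 0.464). The lists moved less than these genes: the cell junction list had 1 call in 43 and a median of 0.76, and the keratin list 2 calls in 19 and a median of 0.21.

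The luminal and glandular epithelium list had no call among 21 tested genes by limma and 3 with an unadjusted p under 0.05, although 19 had a positive difference and the median was 1.03. Its members with the largest differences were CLDN3 at 3.80 (limma adjusted p = 0.2), FOXA2 at 2.96 (0.265) and RAB25 at 2.54 (0.329). The list's mean level was higher at day 50 in cows 2 and 3 alone, and all 4 day 50 levels lay between 0.68 and 1.24. The part of this list in the epithelial rises above was not tested. In cows 1 and 4 the list stood at 1.01 and 0.98 at day 10 and at 0.82 and 0.97 at day 50.

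Motile cilia genes were the list with the highest median. All 34 tested members were higher at day 50, and the levels of 19 did not overlap, against 9.19% of all tested genes that were higher without overlap. The list's median was 2.17, with medians of 2.39, 1.77, 0.86 and 2.90 in cows 1 to 4. A single member was called: TTLL9, which adds glutamate chains to ciliary tubulin, went from -7.16, -6.86, -6.02 and -7.54 to -1.13, -1.55, -2.63 and -2.14, a rise of 5.03 ± 0.69 (SE, limma adjusted p = 0.00979), with 1 of 4 arrays above background at day 10. Its rise was 2.58 with normexp background correction. Of 38 cilia genes on the array 9 were above background on all 8 arrays, and 3 (DNAH5, SPAG16 and SPAG17) on none. The median was 0.66 with normexp background correction and 1.08 over genes above background on all 8 arrays, so its size differed between these settings.

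Mast cell markers were higher in 7 of 8 tested members, with a median of 1.51, and the list's level was higher at day 50 in each of the 4 cows. CPA3, the carboxypeptidase of mast cell granules, went from -5.64, -8.47, -7.89 and -3.54 to -2.88, -4.68, -2.50 and -1.76, a rise of 3.43 ± 0.75 (SE, limma adjusted p = 0.0472), with 1 of 4 arrays above background at day 10. TPSB2, a tryptase of the same granules, rose by 2.50 ± 0.54 (SE, limma adjusted p = 0.0474). For both genes the levels of the days overlapped across cows while each cow was higher at day 50. With normexp background correction neither was called, and the difference of CPA3 was 1.23 (adjusted p = 0.102).

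**Figure D4:**
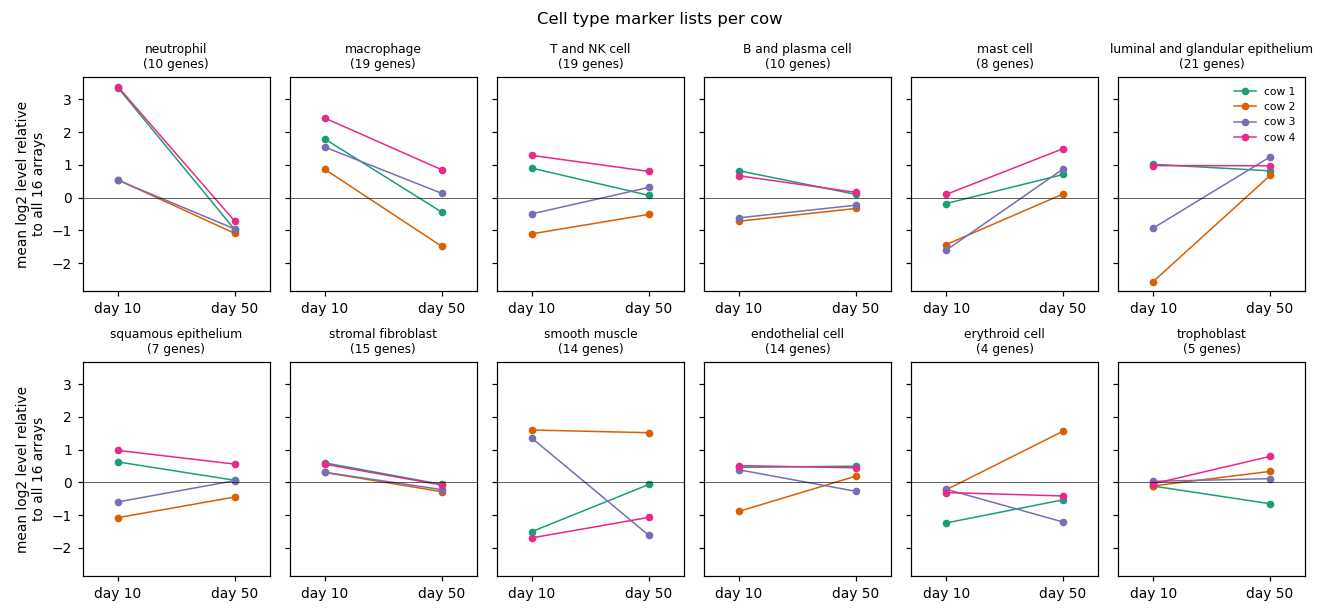
Mean log2 level of 12 cell type marker lists relative to all 16 arrays (y axis) at day 10 and day 50 (x axis), 1 line per cow. Neutrophil and macrophage lists are lower at day 50 in all 4 cows and the mast cell list is higher in all 4; the epithelial and smooth muscle lists differ most between cows at day 10.

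Other large rises concerned signalling and transport. KCNMB2, a subunit of calcium-activated potassium channels, was at least 26.8-fold higher and PPP1R1C, an inhibitor of protein phosphatase, at least 22.3-fold higher, and neither was detected at day 10. MCOLN3, a calcium channel of endosomes, rose by 6.48, GAT by 6.64, DIPK1C by 6.13 and CCDC74B by 5.47. AIFM3, a mitochondrial flavoprotein, rose by 5.25 ± 0.98 (SE, limma adjusted p = 0.0297). Among the rises with the smallest p, PRRG1, a membrane protein with a Gla domain, rose by 1.89 ± 0.22 (SE, limma adjusted p = 0.00437), from -2.51, -2.27, -2.32 and -1.87 to -0.11, -0.40, -0.49 and -0.42. TCEA3, a transcription elongation factor, rose by 2.41, MPPED2, a phosphodiesterase, by 3.41 and LRRC16B, a regulator of actin capping, by 2.00. LRRC16B rested on 1 of 2 probes, as the other had a difference of 0.01.

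Several lists held no called gene in limma, counted over their chosen members only. Outside them, the DNA replication genes POLE2 and GINS3 rose by 1.46 and 1.02 (limma adjusted p = 0.0361 and 0.0256). The interferon-stimulated gene ISG12(B), also outside them, fell by 2.51 (limma adjusted p = 0.0196). The number of members with an unadjusted p under 0.05 was 9 of 26 for immediate early genes, 5 of 36 for the cell cycle, 5 of 21 for antigen presentation, 1 of 33 for interferon response and between 0 and 4 for the remaining lists named here. Immediate early genes were lower in 24 of 26 members with a median of -0.60, led by ATF3 at -3.37 (adjusted p = 0.0625), FOSB at -3.05 (0.263) and FOS at -2.86 (0.115). Cell cycle genes had a median of -0.55 that hid a split between cows, with -0.78, -1.26 and -1.46 in cows 1 to 3 and 1.21 in cow 4. In this list CCNB1, a mitotic cyclin, had a difference of 4.41 (adjusted p = 0.162) with both of its probes positive and higher levels in every cow, whereas CDK1, its partner kinase, had a difference of -1.86 (0.168). Interferon response genes had a median of 0.35, with GBP4 at 2.46 (0.0815) and ISG20 at -2.42 (0.272), and antigen presentation genes one of -0.49, with CD86 at -1.66 (0.0542). Fatty acid genes had a median of 0.27, unfolded protein response genes one of -0.37, and smooth muscle genes one of -0.29 with medians per cow from -2.82 to 1.32. T and NK cell, ribosomal, mitochondrial and trophoblast medians, of 0.06, -0.24, -0.08 and -0.01, changed sign under another scaling. B and plasma cell, endothelial and erythroid medians were -0.10, 0.22 and 0.57.

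The called falls and rises differed in where days 30 and 100 lay, as a description only, since days 10 and 50 chose these genes. For the 165 falls the median level went from -0.21 at day 10 to -2.26 at day 30, -2.74 at day 50 and -3.00 at day 100. At day 30, 142 of the 165 had passed at least 50% of the distance to day 50. For the 98 rises the median level went from -3.37 to -1.71, 0.29 and -0.21, and 62 of the 98 had passed under 50% of the distance at day 30. CRIPTO and LPAR3 were among these, with means at day 30 of -1.85 and -3.73. MMP3, MMP1 and CXCL8 had means of -7.96, -5.03 and -4.84 at day 30, while STAR and PAMR1 stood between, with 0.15 and 2.00.

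**Figure D5:**
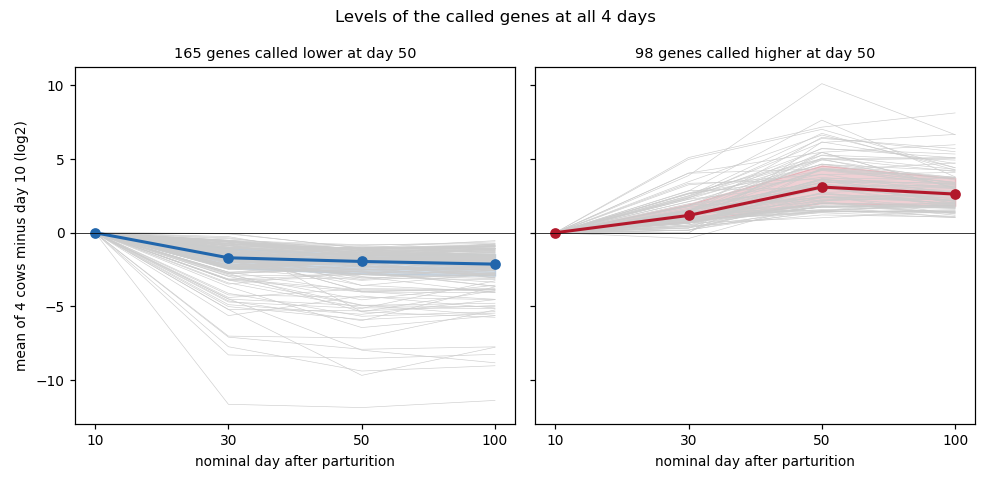
Mean level over 4 cows minus the day 10 mean (log2, y axis) at nominal days 10, 30, 50 and 100 (x axis) for the 165 genes called lower (left) and the 98 called higher (right) at day 50. Grey lines are genes, coloured points are medians and the band spans the quartiles; the falls are mostly complete at day 30 and the rises mostly come after it.

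Of the called genes, 163 had over 1 tested probe, and all probes of 159 had a difference of the same sign, whatever its size. All tested probes were called for 59 of the 163. Neighbours here are tested genes that follow each other on a chromosome, with untested genes between them passed over. In 14 such pairs both genes were called, 11 of them in the same direction. The metalloproteinase run MMP13, MMP12, MMP3 and MMP1 gave 3 of these pairs. CTSB and FDFT1, which are neighbours, went in opposite directions, as did CPA3 and CPB1, the latter a carboxypeptidase of the pancreas named after its values were seen, which fell by 4.91. Variation between cows was wider at day 10 than at day 50 for 62.1% of all tested genes, with a median SD of 0.40 against 0.33 (n = 4 cows each).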

How the data were processed

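Endometrial RNA of 4 cows was labelled with Cy3 and hybridised to one-colour Agilent arrays. Agilent Feature Extraction 11.5.1.1 had subtracted the background from the deposited intensity and detrended it, with arrays left unscaled, per the file headers; the submitters' processing notes name version 10.5.1.1. Flags for nonuniform, saturated and well detected spots are other deposited columns. The authors' value table on a log2 scale correlated with the scanner values at 0.99998 to 1, had column medians from -0.16 to 0.21 and served as an alternative; it was centred on each probe.

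From 43803 non-control spots, nonuniform ones were left out on their array (4 to 125 on the 8 arrays), log2 processed intensity was scaled to the array's percentile 75, and spots of a probe were averaged to 43653 probes. Testing covered the 33182 probes that 4 or more of the 16 arrays detected well above background, and left out 10471. The model was limma 3.58.1 under R 4.3.3 (day and cow, all 16 arrays, 9 residual degrees of freedom, two-sided, checked on simulated data). The number of arrays limits the precision; the median SE was 0.36. Names came from the files and from RefSeq genes of ARS-UCD2.0, matched by accession for 22063 probes. Positions relative to exons, promoters and proteins were not analysed here.

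Cows are paired by animal per the labels. After subtracting the day means, arrays of a cow had a median correlation of 0.12 (24 pairs) and arrays of different cows one of -0.04 (72 pairs). The members and the 47 gene lists were chosen with earlier results of these data known. Named genes are the 15 largest called rises and falls, the 10 largest among genes above background on all 8 arrays, the 8 smallest p in each direction, all called list members, and for lists without a call up to 3 members with the largest differences. An "at least" fold sets an array without detection at the higher of its lowest detected signal and the probe's own value. It is a bound for the processed signal used here, and another background correction can give a smaller difference. Alternatives covered the block, the arrays in the fit, background correction, scaling, the filter on dim probes, array weights, the authors' table and leaving out cows or arrays; leaving out day 30 or day 100 arrays was added after seeing the data.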

Additional observations from a re-analysis of the deposited data

Results flagged for a closer look

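Of 208 groups of 4 cows examined, 14 held 1 array far from the others, with a gap, relative to the group's range, above Dixon's 95% critical value. Chance gives about 1 in 20 such groups. Cow 2 was the array that stood apart in 8 of the 14, cow 1 in 5, cow 4 in 1 and cow 3 in 0. In cow 2 at day 50 STAR stood at -1.83 against -2.96 to -2.84 in the other cows and SLC6A15 at -3.61 against -7.25 to -6.91. In the same biopsy HIF3A stood at 2.79 against -0.40 to -0.01, TCEA3 at 1.05 against 0.09 to 0.25, RAB15 at -0.52 against 0.28 to 0.31 and DGKI at -2.56 against 1.74 to 2.54. At day 10 cow 2 was low for ITGAM, at -6.52 against -5.03 to -4.86, and for the endothelial list, at -0.88 against 0.39 to 0.51.

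Cow 1 at day 10 was high for MMP9, at 2.54 against 0.06 to 0.37, and low for the erythroid list, at -1.24 against -0.31 to -0.21. It also stood at -7.24 for PPP1R1C and -7.14 for KCNMB2, against -9.30 to -9.05 and -9.29 to -9.03, all of them not well above background. That array had the lowest share of spots well above background, 61.2%. At day 50 cow 1 stood at -7.48 for EDNRB against -8.74 to -8.53, and cow 4 at -4.36 for KCNMB2 against -1.66 to -1.43.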

How the results depend on the processing

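With no replicate block (cow left out of the model) 437 probes were called, 161 higher and 276 lower, and with cow as a random block 687 (284 and 403). These totals stayed within 1.5 times, but 25 of the 92 named called genes lost their call with no block. Macrophage calls went from 9 to 4, lysosomal from 5 to 3, complement from 2 to 0 and chemokine receptor calls from 1 to 0. The steroid receptor, insulin-like growth factor, ion channel, solute carrier and mast cell lists each lost 1 call. So did the chemokine, bacterial sensing, uterotonic, and nodal, activin and TGF-beta lists. The cholesterol and immediate early lists each gained 1. The 8 arrays of days 10 and 50 alone, paired by cow, gave 888 calls, 472 of them higher, and 338 of the 888 were among the main 547. Array weights, from 0.23 to 5.26, gave 4306 calls, 2032 higher and 2274 lower. Normexp background correction gave 302 calls higher, and a filter for probes above background on all 8 arrays 130 higher, where fewer probes were tested. Quantile, median and other percentile scaling, no filter, the authors' table and kept nonuniform spots gave between 430 and 678 calls.

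Leaving out a cow gave 21 to 149 calls (3 to 54 higher, 18 to 95 lower). Leaving out 1 array of day 10 or day 50 gave 48 to 376 (7 to 124 higher, 41 to 252 lower), with the fewest without day 50 of cow 1. Leaving out 1 array of day 30 gave 346 to 718 (99 to 301 higher, 247 to 417 lower), with the fewest without cow 3. Leaving out 1 of day 100 gave 352 to 970 (104 to 480 higher, 248 to 547 lower): 937 without cow 1 and 970 without cow 2. Apart from fewer samples, the cause was not tested. No named called gene changed direction in any alternative. Without cow 1, 2, 3 or 4, 85, 65, 86 and 69 of the 92 lost their call; 50 kept it in none of these 4 fits and 14 kept it whichever of the 8 arrays was left out. Of 1504 list medians under alternatives 1481 moved by less than the spread between cows, and the nodal, activin and TGF-beta median became 0.08 without day 10 of cow 1. Genes not detected on any array of 1 day have bounds only, and differences of genes detected on 1 of 4 arrays of a day rest on dim signals.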

Other observations

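Further called genes, chosen after their values were seen, included matrix genes known from cartilage and cornea. COL2A1, the main collagen chain of cartilage, stood at -6.92, -6.67, -4.55 and -8.34 at day 10 and at -1.37, -4.20, 0.03 and -0.65 at day 50, a rise of 5.07 ± 0.88 (SE, 4 cows, limma adjusted p = 0.0248). By this brightest probe it was detected on 1 of 4 day 10 arrays. Its 3 tested probes ranged from -0.32 to 5.07. The probe at -0.32 (limma adjusted p = 0.824) was well above background on 4 of 4 arrays at either day. COL9A3, a chain of collagen IX, rose by 3.76 ± 0.71 (SE, limma adjusted p = 0.0307) and KERA, keratocan, a proteoglycan of the cornea, by 4.22 ± 0.88 (SE, limma adjusted p = 0.0411). TGFBI, a matrix protein induced by TGF-beta, went the other way and fell by 2.98 ± 0.49 (SE, limma adjusted p = 0.022), from 4.05, 3.78, 2.98 and 3.37 to 0.92, -0.36, 0.16 and 1.52.

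NOS2, the inducible nitric oxide synthase, fell by 2.79 ± 0.36 (SE, limma adjusted p = 0.00839), from -0.69, 0.79, 1.69 and 0.65 to -2.85, -2.73, -1.82 and -1.31. PER1, a component of the circadian clock, rose by 1.78 ± 0.32 (SE, limma adjusted p = 0.0277), and RORA, a nuclear receptor that acts on the clock, fell by 2.16 ± 0.35 (SE, limma adjusted p = 0.0203). The hour of sampling was not given in the sources used here. EPHX2, soluble epoxide hydrolase, rose by 3.60 ± 0.74 (SE, limma adjusted p = 0.0399) and GNMT, glycine N-methyltransferase, by 3.57 ± 0.78 (SE, limma adjusted p = 0.048), each in all 4 cows.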
